A study of Mus musculus with 12 samples.

Results

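The 10 genes described here are direct transcriptional targets of p53: *Cdkn1a*, *Mdm2*, *Ccng1*, *Bax*, *Bbc3*, *Pmaip1*, *Phlda3*, *Trp53inp1*, *Sesn2*, and *Eda2r*. They were chosen by symbol, found through the Ensembl identifiers of the count table, and are 10 of its 46078 genes. All 10 had enough counts to be tested in each comparison, so no member was lost to the filter on low counts. The question was whether partial loss of cohesin raised a p53 response in hematopoietic stem and progenitor cells (HSPCs). In culture, 5 of the 10 genes fell after knockdown and 0 rose, where 8.06% of all genes tested were called lower and 6.18% higher. In cells reisolated from transplanted mice, *Cdkn1a* fell and *Ccng1* rose, where 5.32% of all genes were called lower and 5.65% higher. The rise of *Ccng1* lost its call in some alternatives.

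p53, encoded by *Trp53*, is a transcription factor that is held at a low level by the ubiquitin ligase MDM2 and is stabilized by DNA damage and other stress. It binds pairs of short palindromic DNA units near its targets, whose products arrest the cell cycle, trigger apoptosis, repair DNA, or feed back on p53 itself. In hematopoietic stem cells, p53 is known for its part in quiescence and in the response to irradiation. Cohesin is the ring-shaped complex that holds sister chromatids together and forms chromatin loops, and RAD21 is the subunit that closes the ring.

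The data were RNA-seq counts of 12 libraries from C57BL/6 mouse bone marrow cells, 3 in each of 4 groups. All groups had been infected with a GFP-marked lentivirus that carried an shRNA, directed to *Rad21* (shRad21) or, as the control, to luciferase (shLuci), so the controls had also gone through isolation and infection. For culture, LSK cells (lineage-, Sca-1+, c-Kit+) were kept for 3 d after isolation and infection, and the GFP+CD48-Sca-1+ fraction was then sorted. For the in vivo groups, GFP+ LSK cells, KSL cells in the labels, were recovered from lethally irradiated mice that had received infected LSK cells, 3 mo after transplantation by the labels and later by the methods of the study. Age and sex of the mice are not given in the labels, nor is the shRNA sequence or whether replicates came from separate animals or cultures, so p-values measure the spread between these libraries, which may be technical. Library kit, sequencing lane, and sorted population changed together with the setting, so these cannot be told apart from culture against in vivo.

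Each library had between 15235129 and 29846689 counts, at which 3 counts equal between 0.101 and 0.197 CPM (library-scaled counts), a limit that covers counting error only. As a check of the labels, the log2 fold change of *Rad21* was -1.52 for culture (adjusted p = 1.16e-05) and -1.43 for in vivo cells (adjusted p = 8.82e-06), and no shRad21 library overlapped the shLuci range. Markers of the sorted population were present throughout, with a summed level of 10 stem and progenitor markers between 2718 and 3027 CPM in culture and between 4336 and 4864 CPM in vivo. Markers of other lineages were higher in vivo than in culture for granulocytes and monocytes, B cells, T and NK cells, and erythroid cells. The sum of 6 megakaryocyte markers went the other way, in shLuci cells at 709 to 894 CPM in culture and 277 to 345 CPM in vivo.

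To show the DNA that p53 can recognise at these genes, windows from 250 bases before to 50 bases after the RefSeq transcript starts (GRCm38.p6) were searched for the p53 response element, a pair of 10-base units of the p53 consensus that lie at most 13 bases apart. The core C and G of each unit had to match, with at most 2 mismatches in the pair. The unit is its own reverse complement, so 1 search covers both strands, and pairs may overlap each other. RefSeq windows were at hand for 8 of the 10 genes, 11 windows in all. A pair was found for 3 genes, each in a single window, and in 4.09% of all 32851 windows. The genes were picked as p53 targets and the search was chosen after the promoters had been seen, so these values are no test. The 3 sequences are given 5′ to 3′ on the strand of the gene with 20 bases on either side, with both units in capitals.
*Cdkn1a*, plus strand, chr17:29090908-29090967, 1 mismatch and no spacer, 51 bases before the start: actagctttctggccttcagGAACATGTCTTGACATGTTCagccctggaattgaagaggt
*Ccng1*, minus strand, chr11:40755442-40755501, 1 mismatch and no spacer, 195 bases before the start: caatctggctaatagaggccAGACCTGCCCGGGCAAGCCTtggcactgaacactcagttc
*Bax*, minus strand, chr7:45467059-45467119, 2 mismatches and a spacer of 1 base, 201 bases before the start: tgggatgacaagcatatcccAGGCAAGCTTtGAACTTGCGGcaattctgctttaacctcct

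The *Cdkn1a* pair lies before the upstream of its 2 RefSeq starts, at position 29090979, and the window of the other start, at 29093769, held none. With at most 1 mismatch, *Cdkn1a* and *Ccng1* still had a pair, as did 0.627% of all windows. With up to 3 mismatches *Bbc3* had one too, as did 15.6% of all windows. Windows of *Mdm2*, *Phlda3*, *Sesn2*, and *Eda2r* held no pair under any of these limits. A match says only that these letters are present, and elements outside the windows were not searched.

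The 10 genes differed widely in level. Per kilobase of exon, in shLuci cells in culture, *Bax* was highest with 96.5 ± 23.1 RPKM (SD, n = 3), followed by *Ccng1* with 82.4 ± 23.9 and *Cdkn1a* with 44.4 ± 8.46. *Trp53inp1* (27.3 ± 4.89 RPKM), *Mdm2* (23.1 ± 1.81), *Bbc3* (17.7 ± 1.52), *Phlda3* (14.3 ± 5.85), and *Sesn2* (13.7 ± 0.526) lay in the middle. *Pmaip1* (4.58 ± 1.36 RPKM) and *Eda2r* (2.84 ± 0.969) were lowest. In vivo shLuci cells, *Bax* (35.4 ± 2.81 RPKM) and *Ccng1* (34.1 ± 1.41) led, *Mdm2* followed with 20.2 ± 1.61, and *Cdkn1a* lay at 4.91 ± 1.66.

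**Figure D1:**
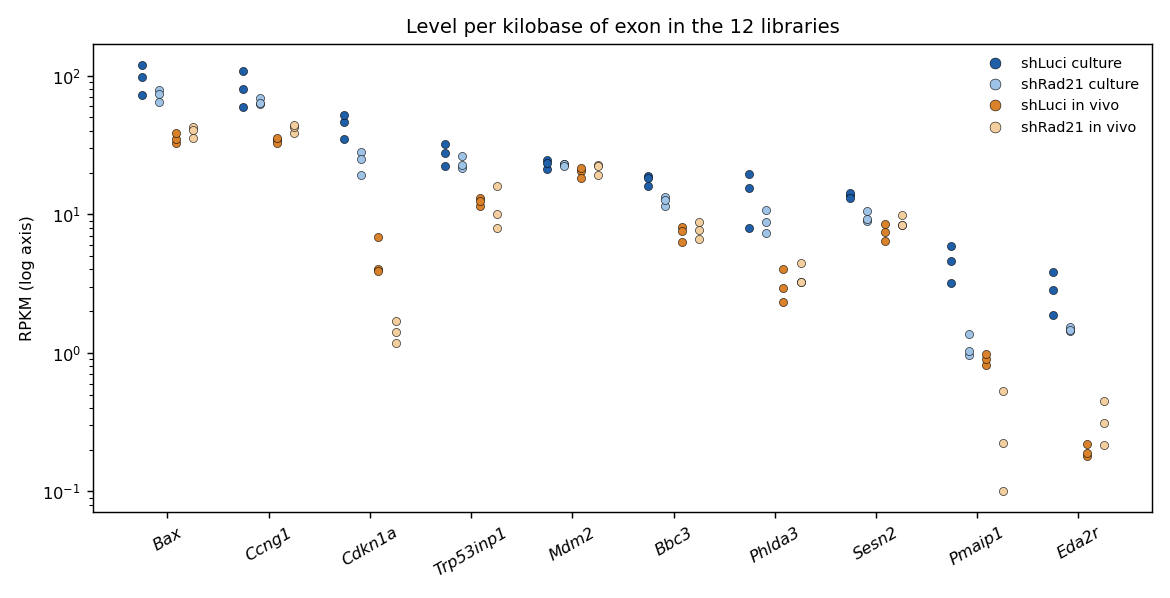
Level of each p53 target per kilobase of exon (RPKM, log axis) in each of the 12 libraries, with 1 point per library and genes ordered by their mean in shLuci cells in culture. *Bax* and *Ccng1* are at the top, *Pmaip1* and *Eda2r* at the bottom, and for *Mdm2* all 4 groups lie together.

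In culture, 5 of the 10 p53 targets fell after *Rad21* knockdown and 0 rose at an adjusted p under 0.05, with 7 lower and 0 higher at an unadjusted p under 0.05 and 5 lower and 0 higher in DESeq2. Of all 15543 genes tested, 8.06% were called lower and 6.18% higher. All 10 log2 fold changes were below 0, with a median of -0.51, against a median of -0.0039 over all genes. The CPM of shRad21 and shLuci libraries did not overlap for 5 of the 10, each time with shRad21 lower, whereas 15.8% of all genes did not overlap with shRad21 lower and 15.9% with shRad21 higher. In bulk RNA, fewer cells that express a gene and less RNA per cell cannot be told apart.

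Among the genes of growth arrest and feedback, *Cdkn1a* fell. It encodes p21, the inhibitor of cyclin-dependent kinases through which p53 stops the cell cycle, and lies on the plus strand of chromosome 17 of GRCm38 from 29090976 to 29100727 (ENSMUSG00000023067). Its normalized counts were 155, 173, and 117 CPM in shLuci replicates 1 to 3, and 64.7, 94.7, and 84.0 CPM in the shRad21 replicates. Every shRad21 library was below every shLuci library, and 54.7% of the control mean was left. The log2 fold change was -0.87 (SE 0.16, adjusted p = 0.00373). An annotated antisense gene shares 7.68% of its exonic bases, and the strand setting of the counting is not given in the sources used here.

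*Mdm2* (ENSMUSG00000020184, minus strand of chromosome 10, 117688875 to 117710758) encodes the ligase that degrades p53 and is itself induced by p53. Its counts were 101, 118, and 112 CPM in shLuci and 111, 111, and 108 CPM in shRad21 cells. Both groups overlapped fully, and the log2 fold change of -0.0059 had a 95% confidence interval from -0.18 to 0.17 (adjusted p = 0.977). *Ccng1* (ENSMUSG00000020326, minus strand of chromosome 11, 40748552 to 40755311), whose cyclin G1 binds a phosphatase that acts on MDM2, had 263, 355, and 198 CPM in shLuci and 207, 231, and 209 CPM in shRad21 cells. The third shLuci library lay below all shRad21 libraries, and the log2 fold change of -0.33 did not pass the test (adjusted p = 0.232). *Phlda3* (ENSMUSG00000041801, plus strand of chromosome 1, 135766119 to 135769136), a competitor of the kinase AKT for membrane lipids, had 22.6, 28.6, and 11.7 CPM in shLuci and 12.99, 15.8, and 10.8 CPM in shRad21 cells. These groups overlapped as well through the third shLuci library (log2 fold change -0.67, adjusted p = 0.131).

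Of the 5 genes of apoptosis, 3 fell. *Pmaip1* (ENSMUSG00000024521, plus strand of chromosome 18, 66458533 to 66465565) encodes NOXA, a BH3-only protein that neutralizes MCL1, and had the lowest fold change of the 10 genes. Its values were 11.8, 15.3, and 8.25 CPM in shLuci and 2.49, 3.54, and 2.65 CPM in shRad21 cells, the latter from 64 to 79 counts per library. The groups were well apart, and 24.6% of the control mean was left (log2 fold change -2.03, SE 0.24, adjusted p = 0.000353). *Bbc3* (ENSMUSG00000002083, plus strand of chromosome 7, 16308393 to 16318205) encodes PUMA, the BH3-only protein that many p53-dependent deaths require. It had 37.7, 36.4, and 32.0 CPM in shLuci and 22.8, 26.7, and 25.3 CPM in shRad21 cells, with no overlap (log2 fold change -0.50, SE 0.10, adjusted p = 0.00777). *Eda2r* (ENSMUSG00000034457, minus strand of chromosome X, 97333840 to 97377216) encodes a receptor of the TNF receptor family. It had 15.7, 21.1, and 10.4 CPM in shLuci and 7.97, 8.51, and 8.11 CPM in shRad21 cells. All 3 shRad21 values were lower, although the spread of the shLuci values was wide (log2 fold change -0.94, SE 0.22, adjusted p = 0.0143), and without shLuci replicate 2 the fall no longer passed the test (adjusted p = 0.0663).

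*Bax* (ENSMUSG00000003873, minus strand of chromosome 7, 45461697 to 45466898), the effector that opens the outer mitochondrial membrane, had 176, 145, and 108 CPM in shLuci and 95.6, 118, and 110.4 CPM in shRad21 cells. The groups overlapped, and the log2 fold change of -0.40 did not pass the test (adjusted p = 0.107). Another annotated gene on the same strand shares 12.2% of its exonic bases, so its counts are less certain. *Trp53inp1* (ENSMUSG00000028211, plus strand of chromosome 4, 11156431 to 11174379), a cofactor of p53 in stress and autophagy, had 135, 195, and 168 CPM in shLuci and 132, 138, and 160 CPM in shRad21 cells, which overlapped (log2 fold change -0.21, adjusted p = 0.318).

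*Sesn2* (ENSMUSG00000028893, minus strand of chromosome 4, 132492032 to 132510501) encodes sestrin 2, which restrains mTORC1 when leucine is scarce and is induced by p53 as well as by the stress factor ATF4. It had 44.6, 46.3, and 42.8 CPM in shLuci and 29.3, 34.5, and 30.3 CPM in shRad21 cells. The spread in each group was small against the gap between them, and *Sesn2* fell (log2 fold change -0.51, SE 0.093, adjusted p = 0.00431).

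Within each group in culture, most of the 10 genes shared their highest and lowest library, and how often other genes did was not counted. In shLuci cells in culture, replicate 2 was the highest library for 8 of the 10 and replicate 3 the lowest for 8, and in shRad21 cells replicate 2 was the highest for 9 and replicate 1 the lowest for 8. The count of genes that fell was 4 without shLuci replicate 2 and 8 without shLuci replicate 3. Over all genes tested, same-numbered libraries deviated together in this experiment. With the replicate number as a block, *Bax* (adjusted p = 0.0309) and *Phlda3* (adjusted p = 0.00325) also fell, which made 7 of the 10. Marker levels of other cells differed in part. The summed level of 7 B cell markers was between 25.1 and 25.7 CPM in shLuci and between 16.6 and 20.1 CPM in shRad21 cells, and that of 7 T and NK cell markers between 20.1 and 36.5 CPM and between 12.5 and 19.4 CPM, so both were lower in all shRad21 libraries, with *Ms4a1* and *Cd8a* at 0 in every library. The sums overlapped for 6 megakaryocyte markers, at 709 to 894 CPM and 838 to 1290 CPM, and for 10 granulocyte and monocyte markers, at 154 to 226 CPM and 153 to 160 CPM, with *Ly6g* at 0 in every library. The sum of 7 erythroid markers overlapped as well, at 11.9 to 14.5 CPM in shLuci and 13.5 to 18.7 CPM in shRad21 cells. Of these, *Hba-a1*, *Hba-a2*, and *Slc4a1* were at 0 in every library. Of 5 megakaryocyte markers tested, 3 rose, and *Pf4* (-0.65) and *Ppbp* (-0.80) fell. Their part in the change of the p53 targets was not tested.

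**Figure D2:**
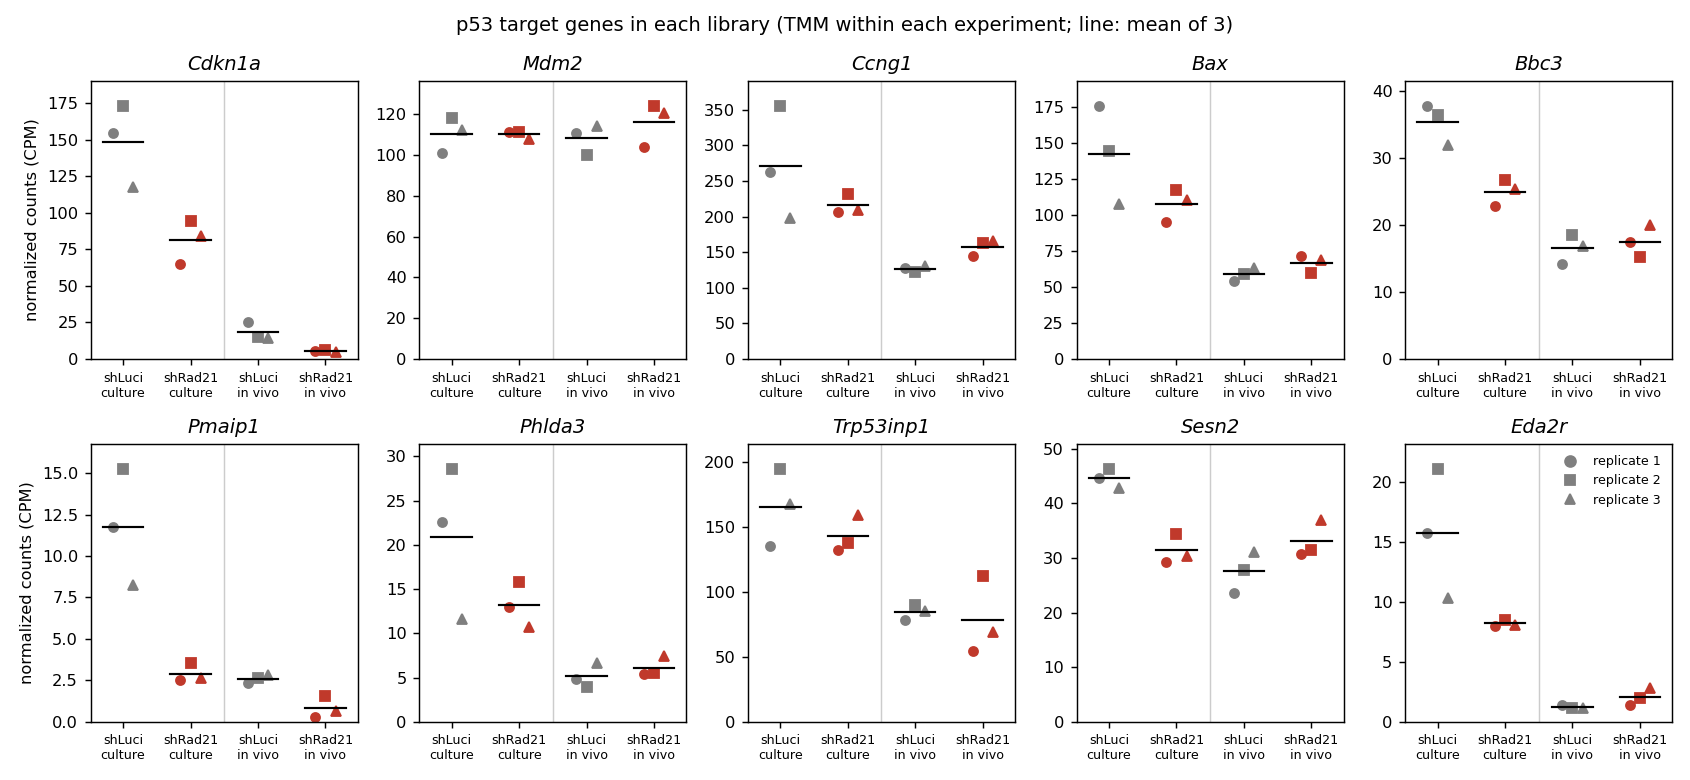
Normalized counts (CPM, linear axes that start at 0) of the 10 p53 targets in the 12 libraries, with 1 panel per gene, gray for shLuci, red for shRad21, symbols for replicate numbers, and a line for the mean of 3. In culture, all shRad21 values are below all shLuci values for *Cdkn1a*, *Bbc3*, *Pmaip1*, *Sesn2*, and *Eda2r*, and in vivo for *Cdkn1a* and *Pmaip1*.

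In vivo, 1 of the 10 p53 targets fell, *Cdkn1a*, and 1 rose, *Ccng1*. Of all 15938 genes tested, 5.32% were called lower and 5.65% higher. The median log2 fold change of the 10 genes was 0.14, against -0.0019 over all genes, with 7 above 0 and 3 below. The groups did not overlap for 4 of the 10, with shRad21 lower for *Cdkn1a* and *Pmaip1* and higher for *Ccng1* and *Eda2r*, whereas 14.5% of all genes did not overlap with shRad21 lower and 14.7% with shRad21 higher.

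*Cdkn1a* had 25.5, 15.3, and 14.5 CPM in shLuci and 5.35, 6.49, and 4.47 CPM in shRad21 cells, the latter from 89 to 134 counts per library. The lowest shLuci library was above the highest shRad21 library, and 29.5% of the control mean was left (log2 fold change -1.76, SE 0.24, adjusted p = 0.00157). The fall was called with each of the 6 libraries left out in turn, with adjusted p between 0.00218 and 0.0126. *Ccng1* had 127, 122, and 130.2 CPM in shLuci and 144, 162, and 166 CPM in shRad21 cells, with no overlap and a log2 fold change of 0.32 (SE 0.070, adjusted p = 0.0186). Its rise was 1.25-fold and was not called without shLuci replicate 2 (adjusted p = 0.0736), without shRad21 replicate 3 (adjusted p = 0.0952), or in 1 model of all 12 libraries (adjusted p = 0.232).

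*Pmaip1* had 2.34, 2.65, and 2.83 CPM in shLuci and 0.292, 1.55, and 0.652 CPM in shRad21 cells. The shRad21 libraries were all lower, but they rested on 6 to 32 counts and differed from each other, and the log2 fold change of -1.64 (SE 0.49) did not pass edgeR's test (adjusted p = 0.0608), whereas it did in DESeq2 (adjusted p = 0.0189). *Eda2r* was low in vivo, with 1.36, 1.13, and 1.16 CPM in shLuci and 1.36, 1.98, and 2.81 CPM in shRad21 cells, from 21 to 56 counts. The groups touched, with the highest shLuci and the lowest shRad21 library both near 1.36 CPM. The log2 fold change of 0.75 had a 95% confidence interval from -0.012 to 1.51 (adjusted p = 0.215).

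The other 6 genes overlapped between the groups in vivo. *Sesn2* had 23.6, 27.9, and 31.2 CPM in shLuci and 30.7, 31.5, and 36.9 CPM in shRad21 cells (log2 fold change 0.26, adjusted p = 0.259). *Bbc3* had 14.2, 18.5, and 16.9 CPM and 17.4, 15.2, and 19.97 CPM, respectively (log2 fold change 0.087, adjusted p = 0.79). *Mdm2* was again close to level, with 111, 99.9, and 114 CPM in shLuci against 104, 124, and 121 CPM in shRad21 cells, and its log2 fold change of 0.10 had a 95% confidence interval from -0.090 to 0.29. For *Bax*, *Phlda3*, and *Trp53inp1*, the log2 fold changes were 0.18 (adjusted p = 0.268), 0.25 (adjusted p = 0.601), and -0.11 (adjusted p = 0.828). Among these 6 genes, the shRad21 libraries spread most for *Trp53inp1*, at 54.5, 112, and 68.9 CPM, and without shRad21 replicate 2, the highest of them, *Trp53inp1* fell (log2 fold change -0.45, adjusted p = 0.0412). Without that library *Pmaip1* fell too (adjusted p = 0.0109), which made 3 genes.

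Levels of lineage markers differed between the in vivo groups. The summed level of 6 megakaryocyte markers was between 277 and 345 CPM in shLuci and between 593 and 762 CPM in shRad21 cells. That of 7 B cell markers was between 95.2 and 135 CPM and between 59.7 and 79.5 CPM, that of 7 T and NK cell markers between 319 and 432 CPM and between 253 and 285 CPM, and that of 10 granulocyte and monocyte markers between 1959 and 2415 CPM and between 1631 and 1753 CPM. The groups were apart for these 4 sums, although the NK cell receptor gene *Klrb1c* rose (log2 fold change 3.46). The sum of 7 erythroid markers overlapped, at 69.8 to 137 CPM in shLuci and 63.1 to 91.7 CPM in shRad21 cells. Among them *Klf1* fell (log2 fold change -1.42). No marker of these lists was at 0 in all libraries of a group, and their part in the values of the p53 targets was not tested.

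**Figure D3:**
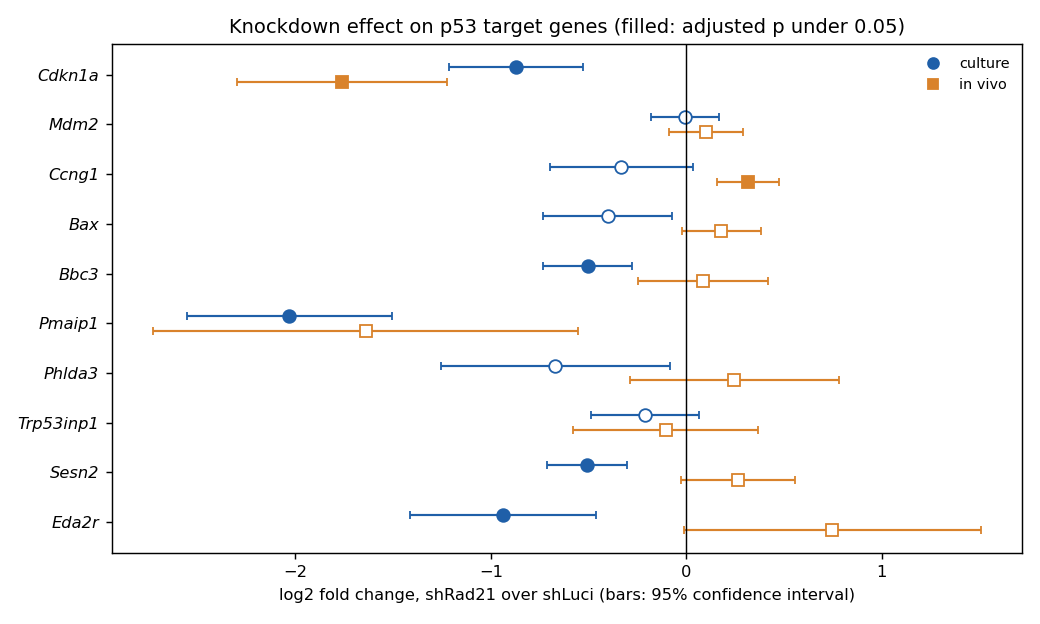
Log2 fold change of shRad21 over shLuci for the 10 p53 targets in culture (circles) and in vivo (squares), with 95% confidence intervals from edgeR and filled symbols for an adjusted p under 0.05. In culture no symbol is to the right of 0, and the filled squares are *Cdkn1a* at -1.76 and *Ccng1* at 0.32.

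Because a call in 1 experiment and not in the other is no difference by itself, the difference between the knockdown effects was tested. Of the 10 genes, 2 had a lower effect in culture than in vivo and 0 a higher one in edgeR, with 1 higher at an unadjusted p under 0.05 and 0 in DESeq2, and over all 17050 genes the shares were 3.03% and 1.64%. *Sesn2* differed by -0.76 on the log2 scale (95% confidence interval -1.10 to -0.43, adjusted p = 0.0113) and *Eda2r* by -1.68 (-2.51 to -0.84, adjusted p = 0.0239). The call for *Eda2r* was lost, with adjusted p up to 0.0816, when either of shLuci replicate 2 in culture, shRad21 replicates 1, 2, or 3 in culture, shLuci replicates 2 or 3 in vivo, or shRad21 replicate 3 in vivo was left out. By sign, 3 of the 10 genes, *Cdkn1a*, *Pmaip1*, and *Trp53inp1*, were lower after knockdown in both experiments, and 7 were lower in culture but higher in vivo.

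For *Cdkn1a*, the only member called lower in both experiments, the effect in culture was 0.90 above that in vivo, with a 95% confidence interval from 0.24 to 1.57 (adjusted p = 0.126). For *Pmaip1* the difference was -0.38 with an interval from -1.53 to 0.77 (adjusted p = 0.798). *Bbc3* (-0.58, adjusted p = 0.0835), *Ccng1* (-0.64, adjusted p = 0.1), *Bax* (-0.58, adjusted p = 0.133), and *Phlda3* (-0.90, adjusted p = 0.254) also missed the threshold, with intervals that lay below 0. DESeq2 called 4 of the 10 lower, adding *Ccng1* (adjusted p = 0.0368) and *Bbc3* (adjusted p = 0.036). With the replicate number within each experiment as a block, *Ccng1* was called as well (adjusted p = 0.0468). Without shLuci replicate 3 in culture the count was 5.

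In control cells, all 10 genes were higher in culture than in vivo, in a comparison that called 37.1% of all genes higher and 37.1% lower. Of 46 other p53 targets, listed further below, 25 were called higher there and 13 lower. The difference was 3.85 on the log2 scale for *Eda2r* (14.4-fold), 3.17 for *Cdkn1a* (9.02-fold), 2.34 for *Pmaip1*, and 2.19 for *Phlda3*. *Bax* (1.44), *Ccng1* (1.27), *Bbc3* (1.27), *Trp53inp1* (1.15), and *Sesn2* (0.87) followed. *Mdm2* was the exception, at 0.20 (adjusted p = 0.0465), and its call was lost in 5 of the 6 alternatives that kept all libraries, with adjusted p up to 0.808 by library size only, where the difference was 0.023. It was also lost, with adjusted p up to 0.203, when any of shLuci replicates 2 or 3 in culture, shRad21 replicates 1, 2, or 3 in culture, shLuci replicates 1 or 2 in vivo, or shRad21 replicate 3 in vivo was left out, which was 8 of the 12 libraries. The order of the 4 groups had shLuci in culture first and shRad21 in culture second for each of the 10 genes, although neighbouring groups overlapped in all 3 steps for *Mdm2*. For *Cdkn1a* all 4 groups were apart, in the order shLuci in culture, shRad21 in culture, shLuci in vivo, and shRad21 in vivo. For *Pmaip1* and *Sesn2*, shRad21 cells in culture overlapped with the next group in vivo.

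p53 itself did not pass the test after knockdown. In culture, *Trp53* had 219, 194, and 201 CPM in shLuci against 204, 209.7, and 189 CPM in shRad21 cells (adjusted p = 0.892), and in vivo 291, 286, and 299 CPM against 288, 299, and 301 CPM (adjusted p = 0.871). In control cells *Trp53* was lower in culture than in vivo, by -0.34 on the log2 scale (adjusted p = 0.000281). That was the reverse of the members other than *Mdm2*, whose small difference lost its call in most alternatives. The mRNA says nothing of p53 protein, which is set mainly by its stability. *Mdm4*, which encodes an inhibitor of p53 that pairs with MDM2, fell in culture from 393 ± 66.8 to 300.2 ± 10.2 CPM (SD, n = 3 each; log2 fold change -0.39, adjusted p = 0.0396) and stayed within the spread in vivo (log2 fold change -0.042, adjusted p = 0.797). Of 20 genes of p53 and its regulators, 17 were tested, of which 3 fell and 1 rose in culture, where 8.06% of all genes were called lower and 6.18% higher, and 0 passed edgeR's test in vivo, where 2 were higher and 0 lower at an unadjusted p under 0.05 and DESeq2 called 2 higher. In culture the others were *Dapk1* (-0.54) and *Atr* (-0.39), kinases upstream of p53, which fell, and *Rchy1* (0.54), a ligase for p53, which rose.

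A wider list of 46 other p53 targets was also examined. Of the 45 tested in culture, 11 fell and 2 rose, with a median log2 fold change of -0.17, where 8.06% of all genes tested were called lower and 6.18% higher. Those that fell included the polo-like kinases *Plk3* (-1.29) and *Plk2* (-1.03), the antiproliferative gene *Btg2* (-0.72), the death receptors *Fas* (-1.01) and *Tnfrsf10b* (-0.67), the stress cytokine *Gdf15* (-1.28), the mTORC1 inhibitor *Ddit4* (-0.73), and the autophagy gene *Dram1* (-0.70). *Gadd45a* (0.74), a growth arrest gene, and *Prkab1* (0.50), a subunit of AMP kinase, rose. The number that fell was 8 in 1 model of all 12 libraries and 18 with the replicate block. It was 5 without shLuci replicate 2, shRad21 replicate 2, or shRad21 replicate 3, and 15 without shLuci replicate 3.

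In vivo, 4 of the 46 other targets rose and 3 fell, with a median of 0.024, where 5.65% of all genes were called higher and 5.32% lower. *Cpt1c*, a carnitine palmitoyltransferase, had 0.795, 1.13, and 1.76 CPM in shLuci and 7.44, 7.36, and 7.58 CPM in shRad21 cells (log2 fold change 2.59, adjusted p = 0.000487). *Ak1*, an adenylate kinase, rose by 1.49, *Fas* by 1.25, and *Perp*, a membrane protein linked to apoptosis, by 0.93. *Btg2* (-0.50), the antioxidant enzyme *Gpx1* (-0.36), and *Siva1* (-0.27) fell. The number that rose was 2 without shRad21 replicate 1. *Fas* had 5.59, 8.40, and 5.62 CPM in shLuci and 2.80, 3.59, and 3.35 CPM in shRad21 cells in culture, but 1.68, 2.27, and 1.11 CPM and 4.04, 3.78, and 4.22 CPM in vivo. It was thus lower in all shRad21 libraries of the first experiment and higher in all of the second, and the difference of -2.26 passed the test (adjusted p = 0.00191).

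In the BCL2 family, to which the products of *Bax*, *Bbc3*, and *Pmaip1* belong, 10 of 14 other members were tested in culture. The antiapoptotic genes *Bcl2l1* (-1.10, adjusted p = 0.000408) and *Bcl2* (-0.66, adjusted p = 0.0263) fell along with the BH3-only gene *Bmf* (-1.46, adjusted p = 0.000195) and 1 further gene, and 0 rose in edgeR or DESeq2, with 1 higher at an unadjusted p under 0.05. The median of the 10 was -0.020, and 8.06% of all genes were called lower. In vivo 9 were tested, of which *Bok* (-1.11) and *Bcl2* (-0.69) fell in both tools and 0 were higher even at an unadjusted p under 0.05, where 5.32% of all genes were called lower.

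Since *Sesn2* also responds to ATF4, 20 genes of that response were examined, which include *Atf4* itself. In culture 15 fell and 1 rose, with a median of -0.49, where 8.06% of all genes were called lower and 6.18% higher. Among them were *Aldh1l2* (-3.77), an enzyme of mitochondrial folate metabolism, *Chac1* (-2.43), which degrades glutathione, *Slc7a11* (-1.69), the cystine transporter, *Asns* (-1.61), asparagine synthetase, and the transcription factor *Cebpb* (-1.45). The number that fell was 9 without shLuci replicate 2 or shRad21 replicate 3, and 10 without shRad21 replicate 1. In vivo 18 were tested, of which 4 rose and 0 fell in edgeR (5.65% and 5.32% of all genes), with 2 lower at an unadjusted p under 0.05 and 1 lower in DESeq2. Those that rose were the stress-induced regulator *Nupr1* (2.20), *Ppp1r15a* (0.98), a phosphatase subunit that reverses the block of translation, *Trib3* (0.72), and *Asns* (0.62). The number that rose was 2 without shRad21 replicate 3. Which of the other p53 targets named here also respond to ATF4 was not examined.

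Genes that p53 represses through p21 and the DREAM complex, mostly genes of mitosis, were examined beside *Cdkn1a*. In culture, where *Cdkn1a* fell, 0 of 20 were called by edgeR or by DESeq2, with 4 lower at an unadjusted p under 0.05 and 1 called lower with the replicate block. The median was -0.025, where 8.06% of all genes were called lower and 6.18% higher. In vivo, 5.32% of all genes were called lower and 5.65% higher. Of the 20, 0 were higher there even at an unadjusted p under 0.05, and the median was -0.46. *Cdkn1a* also fell in vivo, as did 16 of the 20 in edgeR and all 20 in DESeq2. *Kif23* (-0.62), *Top2a* (-0.60), *Ect2* (-0.60), *Aurkb* (-0.50), and *Plk1* (-0.49), which serve chromosome segregation and cytokinesis, were among them. The number was between 9 and 19 with 1 library left out, and 9 without shRad21 replicate 3. Of all genes, 1.64% had a higher knockdown effect in culture than in vivo by edgeR's test, and 3.03% a lower one. For 4 of the 20, *Nek2*, *Plk1*, *Foxm1*, and *Cdk1*, the difference between the experiments passed the test, with a higher effect in culture. That count was 0 without shRad21 replicate 2 in culture and 1 or 2 without shLuci replicates 1 or 2 or shRad21 replicate 1 in culture, shLuci replicates 1 or 2 in vivo, or shRad21 replicates 1 or 3 in vivo. It was 9 without shRad21 replicate 2 in vivo and 9 in DESeq2.

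**Figure D4:**
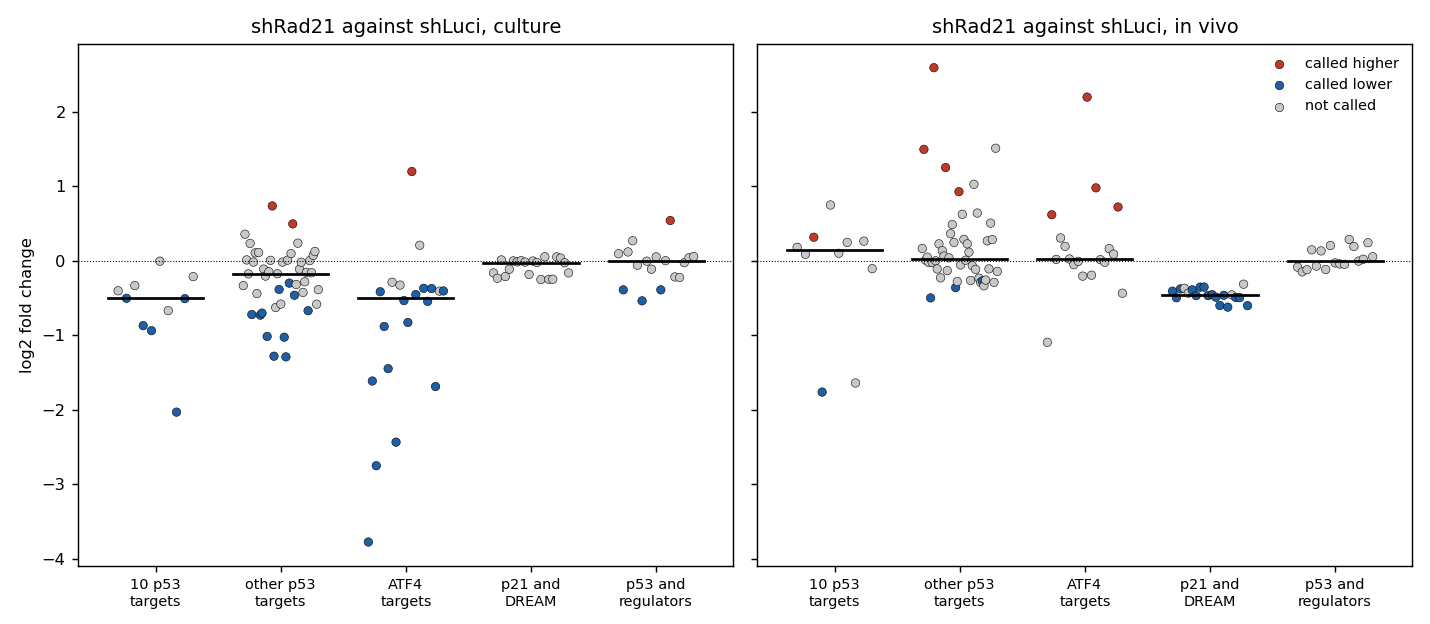
Log2 fold change of shRad21 over shLuci in culture (left) and in vivo (right) for the 10 p53 targets, 46 other p53 targets, 20 ATF4 targets, 20 genes repressed through p21 and DREAM, and 20 genes of p53 and its regulators, with 1 point per gene tested, color for an adjusted p under 0.05 (red higher, blue lower), and a black line for the median. The ATF4 targets lie mostly below 0 in culture (median -0.49) and around 0 in vivo (0.021), whereas the genes repressed through p21 and DREAM lie near 0 in culture (-0.025) and below it in vivo (-0.46).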

How the data were processed

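RNA-seq was done by the authors with TruSeq (culture) or SMART-Seq v4 with Nextera XT (in vivo), 1 lane per experiment. Per the labels, TopHat2 2.0.11, HTSeq 0.6.1, and DESeq2 1.16.1 were used with GRCm38. The annotation release and strand setting are not given in the sources used here. The deposited values are counts per gene, whole numbers without normalization. Of 46078 genes, 45229 were matched by identifier to GENCODE M21. The chi-square per degree of freedom between replicates was 6.16 to 22.6, so none were copies.

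Counts were normalized with TMM (edgeR 4.0.16, R 4.3.3), within each experiment for CPM and over all 12 libraries for RPKM. Genes were kept by filterByExpr (10 counts in 3 libraries, 15 in total) and tested with edgeR's quasi-likelihood test, two-sided, with Benjamini-Hochberg adjustment over all genes tested and a threshold of 0.05, within each experiment, or with all 12 libraries for control cells and for the interaction. SE and 95% confidence intervals come from the F statistic. Alternatives were DESeq2 1.42.0, upper-quartile scaling, library size only, no filter, a minimum of 10 counts in each library, a replicate block, 1 model of all 12 libraries, and each library left out. Same-numbered libraries in culture had r of 0.216 to 0.262 across genes after group means were removed, and those in vivo 0.024 to 0.0694. The numbers come from the labels and were read as pairs in culture only. The main fits did not use this pairing, and the replicate block was run as an alternative in all comparisons. The code was tested on simulated data.

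The members, lists, and alternatives were chosen with earlier results of these data known, and the promoter search was chosen after the promoters had been seen. Named were all members, *Rad21*, *Trp53*, *Mdm4*, and up to 5 genes per list and comparison with the largest absolute log2 fold change among those past the threshold whose average log2 CPM was 1 or more. Promoters are from RefSeq. Figures were drawn with matplotlib 3.10.9 in Python 3.11.15.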

Additional observations from a re-analysis of the deposited data

Results flagged for a closer look

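In edgeR's test of the interaction, 3.03% of all 17050 genes were called lower and 1.64% higher. Outside the lists of cell type markers, which were not counted, 22 genes named here had a knockdown effect that differed by that test. Genes were named in part for passing a threshold, so 22 is no share to set beside those of all genes. Values are the log2 effect in culture minus that in vivo. Of the 10 p53 targets, *Eda2r* (-1.68) and *Sesn2* (-0.76) differed, with the values described above. Among the other p53 targets, the difference was -2.47 for *Cpt1c*, -2.26 for *Fas*, -1.76 for *Gdf15*, -1.57 for *Plk3*, -1.50 for *Perp*, -1.13 for *Ak1*, -0.52 for *Polk*, and 0.77 for *Prkab1*. *Dapk1*, a kinase upstream of p53, differed by -0.66, and in the BCL2 family *Bmf* differed by -1.28 and *Bcl2l1* by -0.88. Among the ATF4 targets, *Asns* (-2.23), *Cebpb* (-1.63), *Trib3* (-1.12), *Slc3a2* (-0.53), and *Shmt2* (-0.52) differed, a count of 5 that was 7 to 15 in the alternatives that kept all libraries (10 in DESeq2), 9 without shLuci replicate 3 in culture, and 4 to 6 with any other 1 library left out. Among the genes repressed through p21 and DREAM, *Nek2* (0.55), *Plk1* (0.54), *Foxm1* (0.53), and *Cdk1* (0.46) differed. Their count of 4 was 3 to 9 in the alternatives that kept all libraries (9 in DESeq2), 0 without shRad21 replicate 2 in culture, 9 without shRad21 replicate 2 in vivo, and 1 to 4 with any other 1 library left out. Kit, lane, and sorted population changed with the setting, so what these differences follow cannot be told apart.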

How the results depend on the processing

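Over 617 recomputed log2 fold changes of the members, 556 stayed on the same side of the threshold with the same direction. Of the rest, 24 lost and 26 gained a call, and 11 changed direction. In culture, 8 of the 10 genes fell without the filter, and 4 to 8 with 1 library left out. In vivo, 2 fell with DESeq2, without the filter, with the replicate block, and in 1 model of all 12 libraries, where 0 rose, and with 1 library left out 1 to 3 fell and 0 to 1 rose. In the interaction, 4 were lower with DESeq2, 6 lower and 1 higher without the filter, and 1 to 5 lower with 1 library left out. The block in vivo, where numbers did not pair the libraries, added only the call of *Pmaip1* (adjusted p = 0.0401), and apart from the values given beside the results the block changed no other call of the 10 genes except that of *Mdm2* in control cells (adjusted p = 0.0525). Without the filter the median total degrees of freedom of the error rose from 10.9 to 107000 in culture and from 9.63 to 1030 in vivo, and in vivo the genes tested rose from 15938 to 31506, with 901 called higher and 848 lower before and 1429 and 1400 after.

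All changes of direction were in values that did not pass the test. *Mdm2* in culture was 0.018 by library size only, 0.013 without the filter, and -0.065 to 0.048 with 1 library left out. With 1 library left out in vivo, *Bbc3* was -0.015 to 0.18 and *Trp53inp1* -0.45 to 0.10. In the interaction, *Pmaip1* was -0.78 to 0.43 and *Trp53inp1* -0.30 to 0.24. For these, the cause was not tested. *Pmaip1* had no value with at least 10 counts in every library in vivo, in the interaction, or in control cells, because that filter removed it. In control cells, upper-quartile scaling and scaling by library size only shifted the median of all genes to -0.12 and -0.18, and the other 9 genes stayed higher under both. In vivo, *Pmaip1* and *Eda2r* rest on 6 to 61 counts.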
